A study of Tupaia belangeri with 6 samples.

Results

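RGS9, ADORA2A, PDE10A, PDE1B, ADCY5, RASD2 and GNAL are signalling genes that the striatum expresses far more strongly than the cerebral cortex does, and their levels were described here in tree shrew libraries labelled as prefrontal cortex (PFC). The 7 genes were selected on their TPM over these same libraries, with earlier results of the data in view, and a gene was counted as measured when a row of the abundance tables carried exactly its symbol. By this rule, 5 of the 7 genes were found among 95863 loci: RGS9, PDE10A, ADCY5, RASD2 and GNAL. No row carried the name ADORA2A or PDE1B. Because the set was proposed for its shared pattern over these libraries, its levels and correlations are given as a description and without a test.

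The libraries came from adult Chinese tree shrews (Tupaia belangeri chinensis), small mammals closely related to primates. RNA was sequenced from the PFC of 3 females (numbered 1, 3 and 4) and 3 males (numbered 1, 4 and 5), with 1 library per animal, and the study compared the sexes. All were adults from the same animal centre with no treatment named, and the study lists every male at a greater age than every female, so sex and age cannot be told apart. Levels are given as TPM, the transcript abundance scaled to a fixed library total and for transcript length, so that genes can be compared. The tables hold no read counts and TPM keeps no depth, so no counting interval could be given.

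Medium spiny neurons, the projection neurons that make up most of the striatum, receive dopamine and adenosine signals through receptors that control the synthesis of cyclic AMP. In these cells the G protein alpha subunit encoded by GNAL couples stimulatory receptors, such as the adenosine receptor encoded by ADORA2A, to the adenylyl cyclase encoded by ADCY5. The phosphodiesterases encoded by PDE10A and PDE1B break down the cyclic nucleotides, RGS9 speeds the switching off of inhibitory G proteins, and RASD2 (Rhes) is a small GTP-binding protein that dampens this signalling. Cortical neurons also express several of these genes at lower levels.

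The labelled tissue was first compared with its markers. SLC17A7, the vesicular glutamate transporter of cortical excitatory neurons, lay between 783 and 1569 TPM. The row named TBR1, a transcription factor of deep cortical layers, lay between 182.7 and 342.8 TPM in the 6 libraries. This row spans 612829 bp, and whether its TPM is that of TBR1 alone is unknown. The libraries differed in other ways as well: loci without a strand took 2.30% to 3.33% of the TPM in the females and in male 4, 5.16% in male 1 and 7.88% in male 5, and between 19899 and 27108 loci reached 1 TPM. The tissue is PFC by its labels, and the sources used here do not say whether a dissected piece also held striatal or basal forebrain tissue; its part in the levels was not tested. Bulk RNA was measured, so fewer cells of a type and less RNA per cell cannot be told apart in any of the values that follow.

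Of the 5 genes, 4 had their 3 highest values in the same libraries, those of females 1 and 3 and male 1. Among all 28740 genes tested, 6.62% had this order, and among the 12782 of them with a gene symbol 8.99% had it. The remaining gene, GNAL, was highest in male 5. The 3 high libraries thus came from both sexes. RGS9 had the widest range, at 153.9 times between the lowest and the highest library, followed by PDE10A at 3.21 times, GNAL at 2.47 times, ADCY5 at 2.06 times and RASD2 at 2.03 times.

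**Figure D1:**
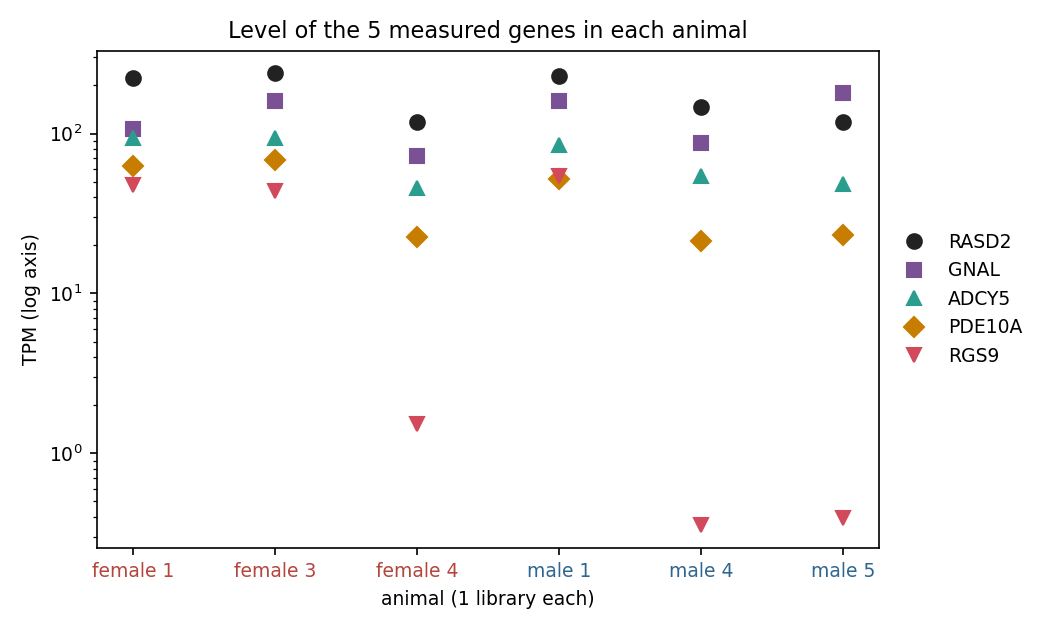
TPM (log axis) of RASD2, GNAL, ADCY5, PDE10A and RGS9 in each of the 6 animals, with 1 point per library. RGS9 lies between 43.7 and 54.6 TPM in females 1 and 3 and male 1 and at or under 1.52 TPM in the other animals, whereas GNAL has its highest point in male 5.

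GNAL (MSTRG.10109; TS_3.0 chromosome 12, 66420602 to 66602305, plus strand) encodes the G protein subunit at the start of the cascade. Its level was 107.1 TPM in female 1, 159.8 in female 3, 72.8 in female 4, 159.9 in male 1, 87.5 in male 4 and 179.8 in male 5. Male 5, which was among the lowest libraries for RGS9 and RASD2, was thus the highest for GNAL. The order of the animals was therefore not that of the other 4 genes. Apart from male 5, females 1 and 3 and male 1 lay above female 4 and male 4 for GNAL too. The mean over the 6 animals was 127.8 ± 44.4 TPM (SD, n = 6). Its 3 highest libraries were those of female 3, male 1 and male 5, and the third was 1.49 times the fourth, a step close to those of ADCY5 and RASD2 but between other animals. The GNAL locus overlaps CHMP1B on the same strand, at 28.1 to 42.4 TPM, and MPPE1 on the opposite strand, at 41.4 to 65.5 TPM. No strand-specific protocol is named for these libraries, so part of the reads of these 3 genes may have been shared between them.

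ADCY5 (MSTRG.569; chromosome 1, 19855610 to 20023073, plus strand) encodes the main adenylyl cyclase of medium spiny neurons. It measured 93.1 TPM in female 1, 93.9 in female 3, 45.5 in female 4, 84.9 in male 1, 54.5 in male 4 and 48.3 in male 5. Female 1, female 3 and male 1 were close to each other and lay above the other 3 animals without overlap, with 1.56 times between the third and the fourth highest library. The mean was 70.0 ± 23.0 TPM (SD, n = 6). Of the 6 unnamed loci within ADCY5 on the opposite strand, 1 reached 3.29 TPM.

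PDE10A (MSTRG.42716; chromosome 3, 2509907 to 2563724, plus strand) encodes a phosphodiesterase for cyclic AMP and cyclic GMP that is concentrated in medium spiny neurons. It measured 62.9 TPM in female 1, 67.9 in female 3, 22.6 in female 4, 51.7 in male 1, 21.2 in male 4 and 23.1 in male 5. The 3 lowest libraries lay between 21.2 and 23.1 TPM, and the third highest was 2.24 times the fourth. The mean was 41.6 ± 21.8 TPM (SD, n = 6). A second row, PDE10Ali1, lies on an unplaced contig (contig4433) and was left out by the rule. It measured 4.58, 5.63 and 0.0771 TPM in females 1, 3 and 4 and 3.01, 2.46 and 3.09 TPM in males 1, 4 and 5, so the row carrying the plain symbol held most of the signal in every library.

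RGS9 (MSTRG.17760; chromosome 15, 55193236 to 55281855, plus strand) encodes a regulator of G protein signalling with a known striatal and a known retinal form. It measured 48.0 TPM in female 1, 43.7 in female 3, 1.52 in female 4, 54.6 in male 1, 0.355 in male 4 and 0.392 in male 5. The same 3 animals were high, and the other 3 were at or under 1.52 TPM. The third highest library was 28.7 times the fourth. On the log2(TPM + 1) scale, the step between the third and the fourth highest library was 4.15, which was the largest among the 1903 genes with this order of animals (their median step was 0.173). The coverage of the locus, which is not scaled for library size, showed the same division, at 16.8, 14.6 and 19.0 for females 1 and 3 and male 1, against 0.648 for female 4 and 0.232 and 0.266 for males 4 and 5. A pair of unnamed loci on the opposite strand within RGS9 had the same distribution: MSTRG.17761 reached 9.69 TPM and MSTRG.17762 reached 6.32 TPM in the libraries where RGS9 was high, and both were at 0 in female 4 and males 4 and 5. Without strand information, their reads cannot be told apart from those of RGS9.

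RASD2 (MSTRG.55703; chromosome 6, 112169062 to 112181671, minus strand) was the most abundant of the set. It measured 222.2 TPM in female 1, 237.9 in female 3, 117.3 in female 4, 229.6 in male 1, 146.7 in male 4 and 118.4 in male 5. The same 3 animals were highest without overlap, and the third highest library was 1.51 times the fourth. The mean was 178.7 ± 57.3 TPM (SD, n = 6). RASD2 was thus abundant in all animals, in contrast to RGS9.

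For the receptor of the set, ADORA2A, no level can be given under its own symbol. A row named ADORA2Ali1 lies on an unplaced contig (contig8207, 25601 to 38167, minus strand). It was left out by the rule, entered no test, and is described here after its values were seen. It measured 89.6, 50.4 and 5.92 TPM in females 1, 3 and 4 and 79.0, 4.78 and 4.53 TPM in males 1, 4 and 5. The same 3 animals were high, with 8.52 times between the third and the fourth highest library. PDE1B, which encodes a calmodulin-dependent phosphodiesterase, had neither a row of its own nor one named as its copy.

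In the coverage column, the same 3 animals were highest for PDE10A, RASD2 and ADCY5. The coverage of PDE10A was 83.8, 81.9 and 67.1 in females 1 and 3 and male 1 and 24.1 to 33.1 in the other libraries. The coverage of RASD2 was 311, 302 and 313 in those animals and 147.0 to 180.3 in the others. The coverage of ADCY5 was 85.9 to 99.1 against 40.3 to 50.8. For GNAL, male 5 was the highest by coverage too, at 186.0.

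Ranked by mean TPM, the set ran from RASD2 through GNAL, ADCY5 and PDE10A to RGS9. GNAL exceeded ADCY5, and ADCY5 exceeded PDE10A, in 6 of 6 libraries. RASD2 exceeded GNAL in 5 of 6, the exception being male 5, and PDE10A exceeded RGS9 in 5 of 6, the exception being male 1. The order of the neighbours RASD2 and GNAL, and that of PDE10A and RGS9, thus did not hold in every animal.

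Ratios to ADCY5 within a library cancel the scaling of that library. RASD2 was 2.39 to 2.71 times ADCY5 in the 6 libraries, so these 2 genes kept a nearly constant ratio while both levels changed. PDE10A was 0.609 to 0.723 times ADCY5 in females 1 and 3 and male 1 and 0.389 to 0.496 times in the other animals. RGS9 was 0.465 to 0.643 times ADCY5 in the former and 0.00651 to 0.0335 times in the latter. The genes therefore moved in the same direction but not by the same factor. GNAL ranged from 1.15 times ADCY5 in female 1 to 3.72 times in male 5.

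Whether the genes varied together was described by Pearson's r of log2(TPM + 1) over the 6 animals for the 10 pairs. The 6 pairs among RGS9, PDE10A, ADCY5 and RASD2 had r between 0.945 and 0.989, and Spearman's rho between 0.543 and 0.943. ADCY5 and RASD2 were the closest pair (r = 0.989, rho = 0.943). The 4 pairs with GNAL had r between 0.365 and 0.429. Of the 10 pairs, 6 reached 0.9, against 1.31% of all pairs of tested genes and 1.56% of pairs of tested genes with a symbol. The median over the 10 pairs was 0.946, against 0.01 over all pairs.

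**Figure D2:**
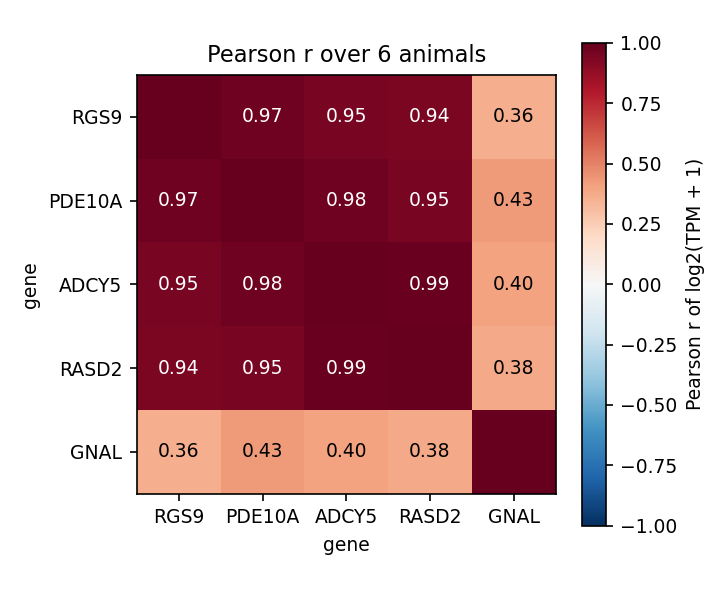
Pearson's r of log2(TPM + 1) over the 6 animals for each pair of the 5 genes, with the colour scale from -1 to 1. The pairs among RGS9, PDE10A, ADCY5 and RASD2 lie at 0.945 or above, and the row and column of GNAL hold values of 0.365 to 0.429.

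These coefficients rest on few points that share a structure. The 3 high and the 3 low libraries formed separate clusters for RGS9 and PDE10A, so that r largely records the step between them, and no relation within a cluster of 3 libraries was tested. Without the 2 libraries farthest from the median of the first gene of a pair, the pairs among RGS9, PDE10A, ADCY5 and RASD2 had r between 0.914 and 0.993. Leaving out 2 libraries cannot empty a cluster of 3. The step between high and low libraries thus remained in these values, and they are no check of it. The same omission in the pairs with GNAL gave 0.519 to 0.866. After centring each gene within each sex, which was chosen after seeing the data, the median over the 10 pairs was 0.951.

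The comparison the study was designed for was that of females with males. In the fit of limma across all genes, none of the 5 genes passed an adjusted p of 0.1 (Benjamini-Hochberg, within autosomes), against 0.0143% of the 27996 autosomal genes. At an unadjusted p under 0.05 the count was also 0 of 5, against 5.04% of autosomal genes. It became 2 of 5 without female 4 and 1 of 5 without male 1, while the adjusted count remained 0. In the split of high and low libraries, female 4 was the low female and male 1 the high male. Leaving out either thus brought sex nearer to the split for which the set was proposed. The 5.04% is of all 6 animals, and the share in the smaller fits is not given. Females and males overlapped for all 5 genes, whereas they did not overlap for 9.81% of the genes tested.

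RGS9 averaged 31.1 ± 25.7 TPM in the female libraries, against 18.5 ± 31.3 TPM for the male ones (SD, n = 3 each), a female minus male difference of 1.91 on the log2(TPM + 1) scale (SE 1.58, adjusted p = 0.925 by limma). PDE10A averaged 51.1 ± 24.9 and 32.0 ± 17.1 TPM, a difference of 0.63 (SE 0.466, adjusted p = 0.925 by limma). The female means of ADCY5 and RASD2 were higher by 0.27 (SE 0.323) and 0.21 (SE 0.328). GNAL went the other way, with a female mean of 113.2 ± 43.9 TPM below the male mean of 142.4 ± 48.6 TPM, a difference of -0.34 (SE 0.344, adjusted p = 0.938 by limma). The difference of RGS9 moved from 1.01 without male 4 to 3.69 without male 1, with 3.31 without female 4. It was 1.18 with FPKM in place of TPM and 2.88 with a pseudocount of 0.01. That of PDE10A moved from 0.35 without female 3 to 1.12 without female 4, with 1.02 without male 1. ADCY5 ranged from 0.10 without female 3 to 0.62 without female 4, RASD2 from 0.0015 without male 5 to 0.53 without female 4, and GNAL from -0.65 without male 4 to -0.056 without female 4. For RGS9, PDE10A, ADCY5 and RASD2, 2 of the 3 females and 1 of the 3 males were among the high libraries. With these standard errors, differences of this size could not be told from 0.

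**Figure D3:**
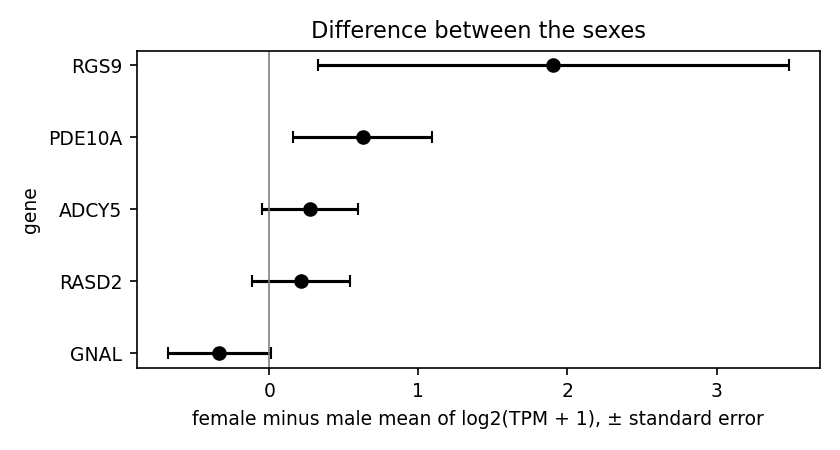
Female minus male mean of log2(TPM + 1) for RGS9, PDE10A, ADCY5, RASD2 and GNAL, with bars of 1 standard error from limma. RGS9 has the largest difference (1.91) and the largest standard error (1.58), and GNAL is the gene with a negative difference (-0.34).

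Other genes of striatal projection neurons were then examined with a list of 40, chosen with earlier results of these data known. Rows were found for 29 of them, and all 29 passed the filter on low values. The 3 highest libraries were those of females 1 and 3 and male 1 for 13 of the 29 (44.8%), against 8.99% of tested genes with a symbol. The 13 include ISL1, which passed the filter through these 3 libraries alone, so that its order was fixed by passing. The mean profile of the 5 measured genes over the animals, each centred and divided by its SD, served to order the list, and the median r with this profile was 0.773, against 0.168 over tested genes with a symbol and 0.0221 over all tested genes. No row was found for 11 genes, among them DRD2, PPP1R1B, PDYN, CHRM4 and GPR6, so the dopamine receptor of the indirect pathway and DARPP-32 (PPP1R1B) are not analysed here. DRD1, the dopamine receptor of the direct pathway, was low in all libraries, at 5.05 TPM in female 1, 7.06 in female 3, 4.02 in male 1, 4.83 in male 4 and 2.70 in male 5, with its lowest value in female 4, and male 4 lay above male 1.

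The genes nearest to the profile were transcription factors and a few others of low level. SIX3, a factor required for striatal neurons of the indirect pathway, measured 13.9, 10.4 and 0.327 TPM in females 1, 3 and 4, 19.1 TPM in male 1 and 0 in males 4 and 5 (r = 0.954). ISL1, a factor of direct-pathway and of cholinergic neurons, measured 1.19, 2.38 and 3.002 TPM in females 1 and 3 and male 1 and 0 in the other animals (r = 0.954). STRIP2 measured 20.1, 24.7 and 5.63 TPM in the females and 21.6, 4.79 and 3.52 TPM in the males (r = 0.948). EBF1 (r = 0.928) and BCL11B (r = 0.919), both factors of developing striatal neurons, followed. SIX3 and STRIP2 had the 3 high libraries of RGS9 without overlap with the others. ISL1 is given as a value alone, for the reason above.

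Neuropeptide genes of the projection neurons also ranked the animals in this way. TAC1, the precursor of substance P, measured 89.2, 78.3 and 26.02 TPM in females 1, 3 and 4 and 231.6, 22.3 and 10.6 TPM in males 1, 4 and 5. PENK, the precursor of enkephalin, measured 178.0, 174.3 and 111.3 TPM in the females and 215.5, 129.9 and 98.9 TPM in the males. Cortical interneurons express PENK as well, and its low libraries remained near 100 TPM. At the other end of the list, NEXN (r = -0.171), OPRD1 (r = -0.050), TMEM158 (r = 0.065), PTPN5 (r = 0.146) and ACTN2 (r = 0.182) did not follow the profile. PTPN5, the striatum-enriched tyrosine phosphatase, was between 100.6 and 199.6 TPM, with its lowest value in male 1.

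**Figure D4:**
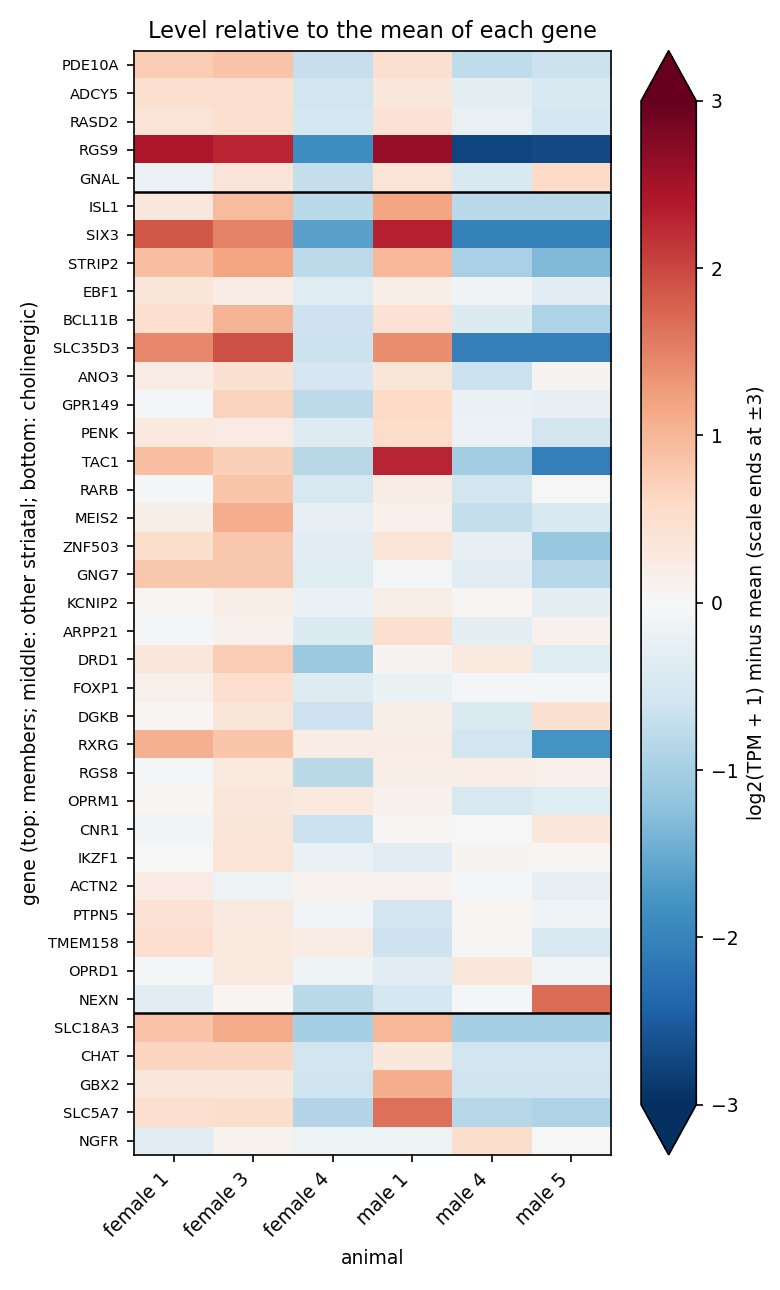
Difference of log2(TPM + 1) from the mean of each gene (colour, scale ending at ±3) in the 6 animals, for the 5 genes of the set at the top, other striatal genes in the middle and 5 cholinergic genes at the bottom. Females 1 and 3 and male 1 are above the mean for RGS9, SIX3, TAC1, CHAT, SLC18A3, SLC5A7 and GBX2 (fixed by the filter on low values for CHAT, SLC18A3 and GBX2), while PTPN5 and NGFR do not have this order.

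No other striatal gene passed an adjusted p of 0.1 between the sexes among the 28 tested, and 2 passed an unadjusted p of 0.05: RXRG (difference 1.43) and TMEM158 (difference 0.69), both with a higher female mean, against 5.04% of autosomal genes. The latter count was 7 without female 4 and 7 without male 1, 3 without male 4, and 1 without female 1, female 3 or male 5. The adjusted count was 0 in each. As for the set, leaving out female 4 or male 1 brought sex nearer to the split of the libraries. The 5.04% is of all 6 animals.

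The direct partners of the set were examined in the same way. Of 20 listed partners (G protein subunits, protein kinase A subunits, phosphatases and anchors of RGS9), 15 had a row and 14 passed the filter, and 2 of the 14 (14.3%) had the 3 highest values in females 1 and 3 and male 1, against 8.99% of named genes. Their median r with the profile was 0.353, against 0.168 over named genes and 0.773 over the striatal list. GNG7, PTPN5 and ARPP21 belong to both the partner and the striatal list, and GNG7 is counted with the order in each. RGS9BP, which anchors RGS9 to membranes, had the highest coefficient with the profile (r = 0.908), but at 0.0330 to 0.550 TPM in 5 libraries and 0 in female 4. GNG7, the gamma subunit that partners the product of GNAL, measured 325.4, 327.0 and 146.0 TPM in females 1, 3 and 4 and 181.0, 147.8 and 102.0 TPM in males 1, 4 and 5 (r = 0.790). It lies on an unplaced contig and entered no test. PPP3CA, a subunit of calcineurin, was the most abundant partner, at 229.3 to 610.2 TPM, and male 5 was its highest library, as for GNAL. PRKACA (r = -0.327) and the row named ARPP19, only 339 bp long (r = -0.423), had the lowest coefficients.

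Paralogs of the set were examined next. Of 33 listed paralogs, 26 had a row and 24 passed the filter. PDE1A, PDE7B and PDE9A had the 3 highest values in females 1 and 3 and male 1 (12.5% of the 24, against 8.99% of named genes), and the median r was 0.146, against 0.168. PDE1A, a relative of PDE1B, measured 112.0, 107.7 and 38.3 TPM in females 1, 3 and 4 and 123.7, 55.9 and 94.6 TPM in males 1, 4 and 5 (r = 0.867). Its coverage lay between 41.5 and 58.8 and did not have this order, and neither did that of PDE9A or of the partner GNG7. GNAS, the stimulatory alpha subunit that most brain regions use in place of GNAL, was between 789 and 1049 TPM (r = 0.435). RASD1, the nearest relative of RASD2, was between 38.9 and 56.6 TPM (r = 0.202), and ADCY6, the nearest relative of ADCY5, between 11.1 and 20.3 TPM (r = 0.010). RGS11, in the same subfamily as RGS9, went against the profile, at 55.3, 40.5 and 129.7 TPM in females 1, 3 and 4 and 28.3, 65.3 and 49.6 TPM in males 1, 4 and 5 (r = -0.778). None of the 37 partners and paralogs tested passed an adjusted p of 0.1. An unadjusted p under 0.05 was reached by 2, the rows named ARPP19 and PDE4D, which is near the 5.04% of all autosomal genes. The latter count was 4 without male 4 and 1 without female 1, while the 5.04% is of all 6 animals. The rows of ARPP19 and PDE4D are short (339 and 1060 bp) and low (2.065 to 9.63 and 0 to 2.999 TPM). They may hold only part of each gene.

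**Figure D5:**
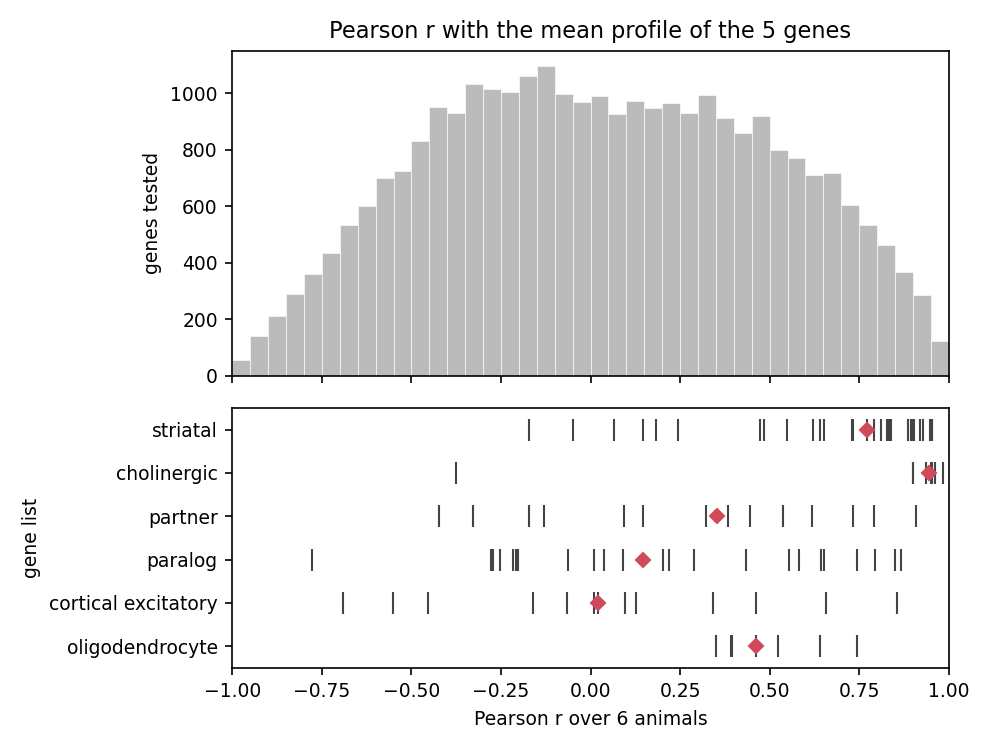
Pearson's r with the mean profile of the 5 genes over the 6 animals, as the number of tested genes per bin of r (top) and as 1 point per gene of each list (bottom). Striatal genes (median 0.773) and cholinergic genes (median 0.944, with most of them passing the filter through the high libraries alone) lie toward 1, whereas partners (0.353), paralogs (0.146) and cortical excitatory genes (0.0212) spread around lower values.

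Markers of another cell type moved with the set. Of the 8 genes listed for basal forebrain and striatal cholinergic neurons, 7 had their 3 highest values in females 1 and 3 and male 1, the exception being NGFR (r = -0.377). Of these, 5 (SLC18A3, ISL1, GBX2 and CHAT among them) passed the filter through those 3 libraries alone, which fixed their order, so the count is no support for the pattern. Summed over the list, they measured 11.6, 14.1 and 20.1 TPM in females 1 and 3 and male 1 and 0.962, 2.29 and 1.17 TPM in female 4 and males 4 and 5. CHAT, the enzyme that makes acetylcholine, measured 1.29, 1.28 and 0.817 TPM in the former and 0 in the latter, and SLC18A3, the vesicular acetylcholine transporter, 2.56, 3.26 and 2.96 TPM and 0. Between 5 and 6 of the 8 genes were at 0 in the low libraries, and none was at 0 in the high ones. The part of these cells in the levels of the set was not tested.

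Markers of the main cortical cell types were compared likewise. The summed cortical excitatory list was 3735, 3996 and 2868 TPM in females 1, 3 and 4. It was 2536, 4460 and 2927 TPM in males 1, 4 and 5, so the sum was lowest in male 1, which was high for RGS9. CAMK2A and SLC17A7, the most abundant of the list, were both lowest in male 1 (1094 and 783 TPM). The row named TBR1, at 307.2 TPM in male 1, was not. The inhibitory list summed to between 1157 and 1452 TPM, with SST its most abundant member at 437 to 805 TPM. Single members differed more. GAD2 lay between 8.61 TPM in female 4 and 87.4 TPM in male 5. SLC32A1 had r = 0.744 with the profile but not the order of the set. DLX5, a factor of forebrain inhibitory neurons, had that order, at 30.3, 36.7 and 22.3 TPM in females 1 and 3 and male 1. It measured 8.18 to 11.3 TPM in the others. Astrocyte, microglia, endothelium and choroid plexus lists held 0 genes with that order. In the oligodendrocyte list, 2 of 7 genes (MOG and CLDN11) had it, against 8.99% of named genes, and r with the profile was positive for all 7 (median 0.463). Between the sexes, 0 of the 7 passed an adjusted p of 0.1 by limma, against 0.0143% of autosomal genes. At an unadjusted p of 0.05, 6 passed, against 5.04% of autosomal genes, with a median female minus male difference of 0.90. This list summed to 546.6 to 965.9 TPM in females 1 and 3 and male 1, and to 737.9, 362.1 and 239.7 TPM in female 4 and males 4 and 5, so that the 2 sets of libraries overlapped. Their part in the levels of the set was not tested.

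The genes whose pattern was most like the mean profile were sought among 5289 tested genes with a symbol, a mean of at least 1 TPM and an SD of log2(TPM + 1) of at least 0.3. CDC14A, a phosphatase, was nearest (r = 0.992), at 84.4, 81.7 and 5.51 TPM in females 1, 3 and 4 and 92.0, 9.94 and 14.3 TPM in males 1, 4 and 5. LPL, lipoprotein lipase, followed (r = 0.991), at 23.3, 30.3 and 7.38 TPM in the females and 25.8, 7.59 and 8.05 TPM in the males. CA12, HAP1, SLC18A3 (at 0 in the low libraries), TFAP2D, ACSL1, OPRK1, IL18 and TP53BP2 completed the first 10 (r between 0.978 and 0.987). OPRK1, the kappa opioid receptor, measured 33.2, 32.4 and 4.64 TPM in females 1, 3 and 4 and 44.1, 7.22 and 10.7 TPM in males 1, 4 and 5. HAP1, the huntingtin-associated protein, moved less, between 8.83 and 18.9 TPM. The profile is itself highest in females 1 and 3 and male 1, so the choice by r fixed the order of these 10 genes.

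The lowest coefficients were those of EIF3D, COL26A1, GADD45GIP1, IGFBP6 and NEURL2 (r between -0.991 and -0.967). EIF3D, a subunit of a translation initiation factor, measured 40.6, 39.6 and 166.5 TPM in females 1, 3 and 4 and 37.4, 121.9 and 99.0 TPM in males 1, 4 and 5. Its coverage, however, lay between 39.4 and 54.9 in all 6 libraries, with no such order, so that for EIF3D the TPM and the coverage of the same rows did not go together.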

How the data were processed

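Poly(A)-enriched RNA from the PFC of 3 female and 3 male tree shrews was sequenced without pooling. The authors mapped the reads with HISAT2 2.2.1 to TS_3.0, and assembled, merged and quantified transcripts with StringTie 2.2.1. The deposited tables give TPM (used here), FPKM (used as an alternative) and coverage (mean depth, a signal not scaled for depth) per locus, but no counts.

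Rows with the same gene ID and chromosome were summed, and an exact symbol was required. Autosomal and X genes entered the test where 3 animals or more reached 0.1 TPM, by limma 3.58.1 (R 4.3.3) on log2(TPM + 1) with a trend and no covariate. This scale understates the change of low genes. Adjustment followed Benjamini-Hochberg, for autosomes and X apart, with a threshold of 0.1. Genes on unplaced contigs, in chromosome X from 4542400 to 6144400 and in chromosome 26 before 3132930 were not tested. The script was tested on simulated data. Python 3.11.15, numpy 2.4.6, pandas 2.3.3, scipy 1.17.1 and matplotlib 3.10.9 served for the rest.

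The members and lists were chosen with earlier results of these data known. Named genes were the set, listed genes at either end of a list by level or by r with the mean profile, and the 10 highest and 5 lowest genes by that r. ADORA2Ali1, PDE10Ali1, DLX5, DRD1, TAC1 and single paralogs or marker genes were named after their values were seen. Animals are separate by their labels, and 1 library each was measured.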

Additional observations from a re-analysis of the deposited data

How the results depend on the processing

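The count of genes past an adjusted p of 0.1 was 0 for the set, for the other striatal genes and for partners and paralogs in all 19 alternatives, which changed the pseudocount, the filter, the scaling, the unit, the summing of loci, the trend, the adjustment or the animals, or added a replicate block. The median pairwise r of the set (0.946) was 0.928 with a pseudocount of 0.1, 0.923 with 0.01, 0.968 with FPKM and 0.571 with Spearman's rho, and lay between 0.932 and 0.969 when each animal was left out. The median female minus male difference (0.27) lay between 0.10 and 0.62 when each animal was left out.

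The animals share numbers 1 and 4 between the sexes, but their deviations from the group means correlated at 0.00098 and 0.0383, so the number was not taken as a pairing. With the replicate block the median difference was -0.061, the difference of ADCY5 turned to -0.061 and that of RASD2 to -0.18, while RGS9 measured 0.36, PDE10A 0.18 and GNAL -0.42, and no gene of the set was called. This fit drops the animals whose number occurs in only 1 sex from the comparison. The cause of these changes was not tested. Without counts, how much of the spread of RGS9 under 1 TPM is counting error is unknown.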

Other observations

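Some genes of neuronal activity that were not part of the set also had their 3 highest values in females 1 and 3 and male 1. Of the 10 immediate early genes with a row, 5 had this order (FOS, FOSB, EGR1, EGR4 and NPAS4), against 8.99% of tested genes with a symbol and 6.62% of all genes tested. FOS measured 92.1, 69.8 and 23.0 TPM in females 1, 3 and 4 and 78.3, 30.1 and 18.8 TPM in males 1, 4 and 5. EGR1 measured 53.4, 61.4 and 20.9 TPM in the females and 48.0, 29.0 and 22.0 TPM in the males. In the list for thalamus and septum, 2 of 8 genes had this order, SLC17A6 and GBX2, of which GBX2 passed the filter on low values through these 3 libraries alone, so that its order was fixed by passing. In this list the median r with the profile was 0.239, and the summed level was highest in male 5, at 94.5 TPM against 54.6 to 85.7 TPM in the others. SLC17A6, the vesicular glutamate transporter of subcortical neurons, measured 8.43, 11.3 and 3.85 TPM in the females and 13.7, 2.41 and 1.11 TPM in the males.

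The genes with a symbol and the largest step between the third and the fourth highest library in this order were RGS9, NTS, SIX3, KRT15 and CDC14A, and NTS and KRT15 are named after their values were seen. NTS, the precursor of the peptide neurotensin, measured 48.3, 33.5 and 1.04 TPM in females 1, 3 and 4, 86.0 TPM in male 1, 0 in male 4 and 0.144 TPM in male 5. KRT15, a keratin, measured 13.9, 5.02 and 0 TPM in the females and 11.1, 0 and 0 TPM in the males, so it passed the filter through the 3 high libraries alone and its order was fixed by passing.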
